A study of Mus musculus with 10 samples.

Results

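The core cardiac transcription factors are the DNA-binding proteins and the coactivator that set up and hold the heart muscle gene program. The mRNAs of 10 of them were followed: Nkx2-5, Gata4, Gata5, Gata6, Mef2a, Mef2c, Hand1, Hand2, Srf and Myocd. They were chosen by name, and each was read from the single row of the array table that names only that gene, which gave 10 of 19946 genes. Expression had been read out with Affymetrix Mouse Gene 1.0 ST arrays, whose probes sample the exons of a gene and are combined into 1 log2 signal. The study asked whether loss of CAR, the coxsackievirus and adenovirus receptor, changes transcription in the embryonic heart. CAR is a cell adhesion protein encoded by Cxadr that lies at contacts between heart cells. One group was CAR KO hearts (CAR -/-, a knockout in all cells of the embryo in the line B6.Cg-Cxadr tm1/Fgr) and the other was WT hearts (CAR +/+), both from matings of CAR +/- mice. All hearts were taken untreated at stage E10.5, and each of the 5 CAR KO and 5 WT samples held RNA of 3 pooled hearts (15 hearts per genotype). The labels do not say whether the pools came from separate litters, so the p-values measure only the spread between these samples.

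These factors work as a network rather than a chain. NKX2-5 is a homeodomain protein, GATA4, GATA5 and GATA6 are zinc finger proteins, HAND1 and HAND2 are basic helix-loop-helix proteins, and MEF2A, MEF2C and SRF belong to the MADS-box family. Myocardin, the product of Myocd, does not bind DNA itself but attaches to SRF and makes it a strong activator of muscle genes. They bind one another and share target promoters, among them those of cardiac actin, the myosin light chains and the natriuretic peptides.

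The array as a whole gave little difference between the genotypes. Array medians lay between 7.65 and 7.73, and correlations between samples ranged from 0.987 to 0.998. Cxadr, the targeted gene, averaged 6.46 ± 0.17 in CAR KO hearts and 8.38 ± 0.18 in WT hearts (log2 signal, SD, n = 5 each), with no overlap (log2 fold change -1.91, standard error 0.10, adjusted p = 1.40e-05 from limma). It was the only one of 28944 transcript clusters called at an adjusted p under 0.05 (0.00345%). All 14 of 14 cardiomyocyte markers lay above the background of 6.51 set by odorant and vomeronasal receptor genes. So did 14665 of all 19946 genes, so that this count does not test the heart label. Tnnt2 (cardiac troponin T) averaged 13.84 in CAR KO hearts and 13.87 in WT hearts. All 15 of 15 liver and yolk sac markers were above background, and several differed widely between samples. Alb (serum albumin) ranged between 6.28 and 12.90 in CAR KO samples and between 7.77 and 12.08 in WT samples. Afp (alpha-fetoprotein) ranged between 6.70 and 12.51 in CAR KO samples and between 8.24 and 11.40 in WT samples. Not every marker followed these: Amn and Cubn, chosen after their values were seen, spanned only 0.37 and 0.78 over the 10 samples, and Amn was lowest in WT sample 5 and Cubn in CAR KO sample 5. Averaged, these 15 markers were highest in CAR KO sample 5 (9.95), WT sample 5 (9.06) and WT sample 2 (8.98). The cardiomyocyte markers averaged lowest in CAR KO sample 5 (12.77) and WT sample 5 (12.85). They averaged between 13.03 and 13.11 in the other 8 samples. Sample 5 also had, within each genotype, the highest means of foregut markers (7.79 in CAR KO sample 5 and 7.80 in WT sample 5), neural crest markers (7.44 and 7.71) and cushion mesenchyme markers (10.46 and 10.34), and the lowest mean of endocardium markers (10.49 and 10.67). Some genes of these lists, chosen after their values were seen, went the other way. Foregut Nkx2-1 (6.49) and neural crest Sox10 (6.95) and Foxd3 (6.29, not above background) were lowest of all samples in CAR KO sample 5. Snai1 of the cushion list (9.77) was lowest there among CAR KO samples. The neural crest mean was of only 4 genes. The part of these tissues in the values below was not tested.

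The DNA words that these factors read were searched for close to the genes themselves and to their targets. Promoter windows of RefSeq (GRCm38.p6, 250 bases before to 50 after an annotated start) were matched for 6 of the 10 genes (8 windows): Gata5, Mef2a, Mef2c, Hand2, Nkx2-5 and Srf. Both strands were searched for AGATAA and its variant TGATAA, which are words of the zinc finger factors. A word of NKX2-5, AAGTG, was searched as well. The word of the HAND and other helix-loop-helix proteins, CANNTG, can overlap with the NKX2-5 word. The CArG box of SRF and the MEF2 box completed the search. The 4 stretches below were chosen because they hold the words of the factors described here, once in the promoters of members and once in those of targets. Capitals mark the CArG boxes in Srf and Actc1 and the GATA words, on either strand, in Hand2 and Nppb. Srf is on the minus strand (chr17:46556215-46556244), Hand2 on the plus strand (chr8:57320733-57320982), Actc1, the cardiac actin gene, on the minus strand (chr2:114052876-114053125), and Nppb, the gene of brain natriuretic peptide, on the plus strand (chr4:147985805-147985821). Each is written 5′ to 3′ along its gene.
Srf: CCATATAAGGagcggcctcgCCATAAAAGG
Hand2: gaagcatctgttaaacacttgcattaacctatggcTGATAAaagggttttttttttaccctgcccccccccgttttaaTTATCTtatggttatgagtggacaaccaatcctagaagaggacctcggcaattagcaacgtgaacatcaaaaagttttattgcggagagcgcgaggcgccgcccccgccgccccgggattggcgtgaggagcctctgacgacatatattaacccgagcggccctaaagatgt
Actc1: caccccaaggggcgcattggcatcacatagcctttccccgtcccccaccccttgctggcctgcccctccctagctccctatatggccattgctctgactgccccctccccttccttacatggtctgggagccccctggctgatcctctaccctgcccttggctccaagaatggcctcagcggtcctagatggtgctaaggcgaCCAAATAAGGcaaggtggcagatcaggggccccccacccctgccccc
Nppb: TGATAAatcagAGATAA
The Srf window was the only one of the 8 with a CArG box, and it held 2, which begin 82 and 62 bases before the start. Among the cardiac target genes a CArG box was in 3 of 32 windows (9.38%), among the smooth muscle targets of SRF and myocardin in 2 of 11 (18.2%), and among all 32851 windows in 1.63%. Hand2 was the only one of the 6 matched members with a GATA word, TGATAA beginning 215 bases before the start and AGATAA, read on the other strand, ending 172 bases before it. Each word was thus in 1 of the 8 windows of members (12.5%), against 11.2% of all windows for AGATAA and 9.05% for TGATAA. Of the 32 windows of cardiac targets, 8 held AGATAA (25%) and 5 held TGATAA (15.6%). Of the 11 windows of smooth muscle targets, 0 held either word. The MEF2 box was found in the window of Mef2a alone among the members and in 3.19% of all windows. It was in 1 of the 32 windows of cardiac targets (3.12%) and in 0 of the 11 of smooth muscle targets. AAGTG and CANNTG are common words, in 46.4% and 72.3% of all windows. Each was in 5 of the 8 windows of members (62.5%), those of 3 genes for AAGTG and of 4 for CANNTG. They were in 43.8% and 93.8% of the windows of cardiac targets, and in 18.2% and 81.8% of those of smooth muscle targets. These matches describe letters in a window and say nothing of binding.

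The mRNA of all 10 factors differed little between CAR KO and WT hearts. None was called (0 of 10, against 0.00345% of all transcript clusters), and in all 10 the CAR KO and WT samples overlapped. Across the array, 0.359% of clusters had samples that did not overlap. The log2 fold changes, CAR KO minus WT, ran between -0.10 (Srf) and 0.17 (Hand1), with a median of 0.02 over the 10 and 0.01 over all 19946 genes. The 95% confidence interval lay inside a 1.5-fold change in either direction for 10 of 10, against 97.3% of all clusters. It lay inside a 1.2-fold change for 7 of 10 (60.6% of all clusters), the exceptions being Nkx2-5, Gata4 and Hand1. At an unadjusted p under 0.05, which 2.4% of all clusters reached, Hand1 alone was higher (0.978% of all clusters) and none was lower (1.43% of all clusters). All 10 lay above background, as did 14665 of all 19946 genes.

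**Figure D1:**
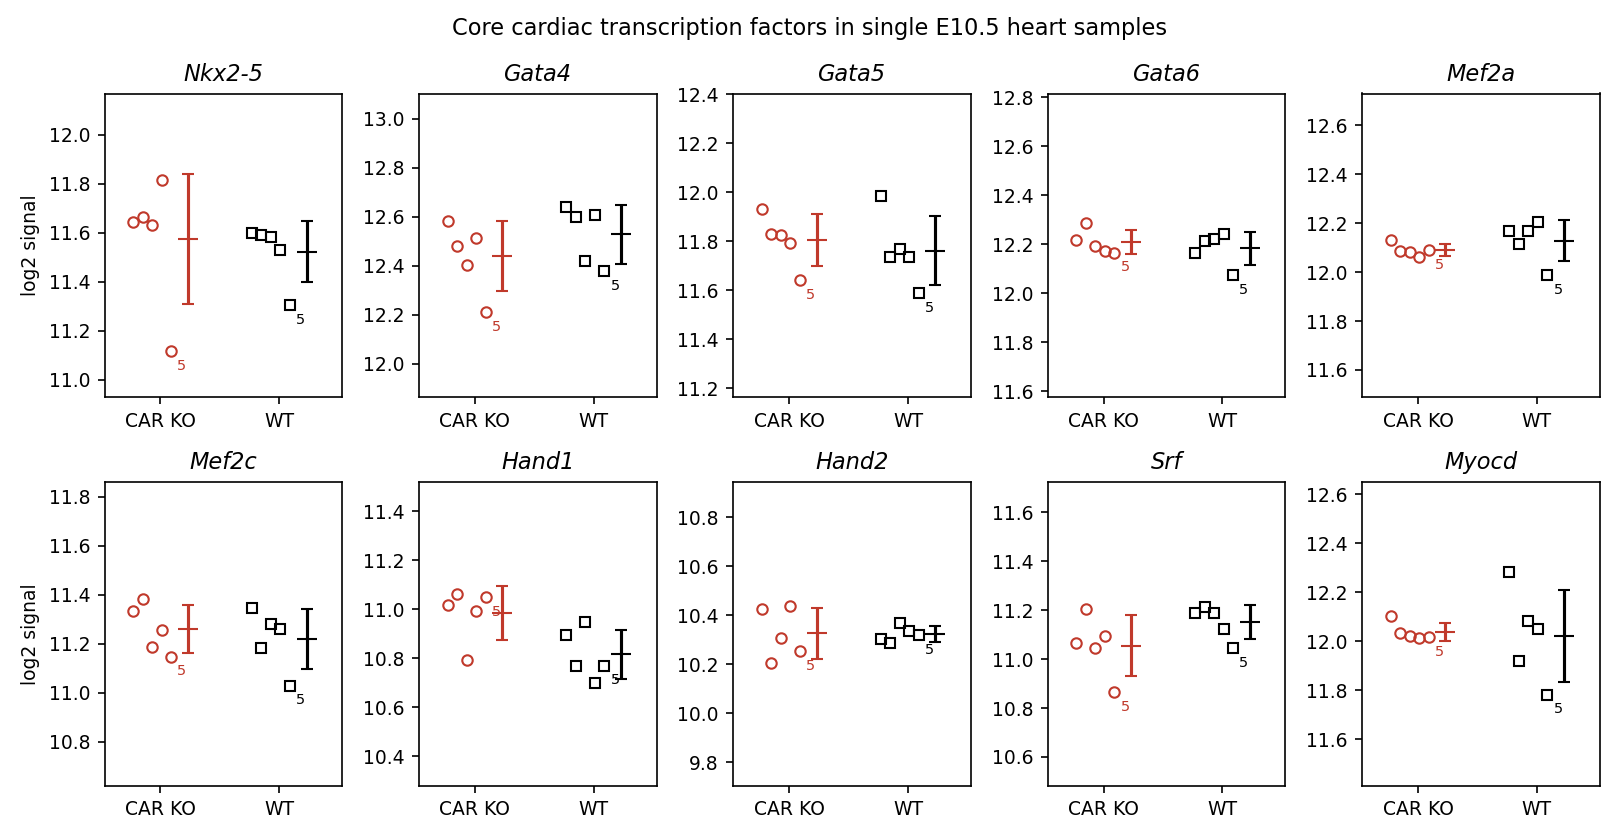
Log2 signal of each of the 10 transcription factors in single samples (y axis, each panel spans the same range around the gene's mean), with CAR KO samples as red circles and WT samples as black squares, numbered 1 to 5 left to right and sample 5 marked. Bars are mean ± SD (n = 5); the genotypes overlap for every gene, and sample 5 of either genotype is often the lowest.

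Nkx2-5 encodes the homeodomain factor that marks heart muscle progenitors and is needed for the heart tube to loop. Its log2 signal in CAR KO samples 1 to 5 was 11.65, 11.67, 11.63, 11.82 and 11.12, against 11.60, 11.59, 11.58, 11.53 and 11.31 in WT samples 1 to 5. Sample 5 was the lowest of its genotype in both, and the remaining 4 CAR KO samples each lay above all WT samples. Over all samples the means were 11.58 ± 0.27 in CAR KO hearts and 11.52 ± 0.12 in WT hearts (SD, n = 5 each). The log2 fold change was 0.05 (standard error 0.12, 95% interval -13.1% to 23.9% on the linear scale, adjusted p = 1.0 from limma). Without CAR KO sample 5 it was 0.17 (unadjusted p = 0.0457, adjusted p = 0.939), without CAR KO sample 4 it was -0.01, and without both samples numbered 5 it was 0.11 (unadjusted p = 0.0852 from limma). The estimate for Nkx2-5 thus moved by more than 1.5 times with CAR KO sample 5, the sample that is also lowest in cardiomyocyte markers and highest in liver markers. It depended on WT sample 5 too, since leaving that sample out as well changed 0.17 to 0.11. With the cardiomyocyte marker mean as a covariate the log2 fold change of Nkx2-5 was 0.08 (unadjusted p = 0.193 from limma). The part of the liver markers in it was not tested.

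The GATA factors bind the word GATA and act with NKX2-5, TBX5 and MEF2 proteins on heart promoters. Gata4 is needed for the heart tube to close at the midline. Its signal was 12.58, 12.48, 12.40, 12.51 and 12.21 in CAR KO samples 1 to 5, and 12.64, 12.60, 12.42, 12.61 and 12.38 in WT samples 1 to 5. CAR KO samples 1, 2, 3 and 4 all lay within the WT range and CAR KO sample 5 lay below it. The means were 12.44 ± 0.14 in CAR KO hearts and 12.53 ± 0.12 in WT hearts (SD, n = 5 each), a log2 fold change of -0.09 (95% interval -17.0% to 6.37%, adjusted p = 1.0 from limma). Without CAR KO sample 5 the difference shrank to -0.03.

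Gata5, which is most active in the endocardium and its cushions, gave 11.93, 11.83, 11.83, 11.79 and 11.64 in CAR KO samples 1 to 5, and 11.98, 11.73, 11.77, 11.74 and 11.59 in WT samples 1 to 5. In each genotype sample 1 was the highest and sample 5 the lowest. The log2 fold change was 0.04 (95% interval -8.58% to 16%). Gata6, which overlaps in function with Gata4 in heart muscle, varied least of the 10 factors, with an SD of 0.06 over all 10 samples. Its values were 12.22, 12.29, 12.19, 12.18 and 12.17 in CAR KO samples 1 to 5, and 12.16, 12.21, 12.22, 12.24 and 12.08 in WT samples 1 to 5. All of the CAR KO values but that of sample 2 fell inside the WT range, and the log2 fold change was 0.02 (95% interval -6.18% to 10.3%).

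The MEF2 proteins switch on structural genes of muscle, and Mef2c is needed for the right ventricle to form. Mef2c gave 11.33, 11.38, 11.19, 11.26 and 11.15 in CAR KO samples 1 to 5, and 11.35, 11.18, 11.28, 11.26 and 11.03 in WT samples 1 to 5. The WT range took in all CAR KO samples but the second, and the log2 fold change was 0.04 (95% interval -7.77% to 14.8%). Mef2a, its relative that becomes prominent in the later heart, gave 12.13, 12.09, 12.08, 12.06 and 12.09 in CAR KO samples 1 to 5. In WT samples 1 to 5 it gave 12.17, 12.12, 12.17, 12.21 and 11.99. The CAR KO samples lay closer together (SD 0.03) than the WT samples (SD 0.08) and wholly inside their range, and the log2 fold change was -0.04 (95% interval -10.4% to 5.75%).

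HAND1 and HAND2 divide the early heart between them, with Hand1 strongest on the outer wall of the left ventricle and Hand2 in the right ventricle and outflow tract. Hand1 was the factor with the largest estimated difference. Its signal was 11.02, 11.06, 10.79, 10.995 and 11.05 in CAR KO samples 1 to 5, and 10.89, 10.77, 10.95, 10.70 and 10.77 in WT samples 1 to 5. CAR KO samples 1, 2, 4 and 5 were above all WT samples and CAR KO sample 3 lay among the WT values. The means were 10.98 ± 0.11 in CAR KO hearts and 10.82 ± 0.10 in WT hearts (SD, n = 5 each). The log2 fold change was 0.17 (standard error 0.07, 95% interval 0.973% to 25.0% higher), with an unadjusted p of 0.0350 and an adjusted p of 1.0 from limma. The exact permutation test of this single value, two-sided, gave p = 0.0397. Genotype accounted for 44.2% of the variance of Hand1 over the 10 samples. This was the highest share of the 10 factors, whose median was 4.75%, against a median of 4.39% over all genes above background. A highest value set against a median does not measure a genotype effect.

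The Hand1 difference kept its direction when any sample was left out, with log2 fold changes between 0.14 and 0.22. Its unadjusted p from limma lay between 0.00727 and 0.0907 in those fits and was above 0.05 without CAR KO sample 1, 2, 4 or 5 or WT sample 2, 4 or 5 (0.0683, 0.0771, 0.0581, 0.0669, 0.0686, 0.0907 and 0.0668, in that order). Without both samples numbered 5 the log2 fold change was 0.14 (unadjusted p = 0.111), and without CAR KO sample 5 and WT samples 2 and 5 it was 0.12 (unadjusted p = 0.209). A fit with a replicate block for the sample number gave an unadjusted p of 0.0571. Of the markers of the epicardium, the outer cell layer of the heart, 8 of 8 had lower means in CAR KO hearts, 4 of them at an unadjusted p under 0.05 (1.43% of all clusters were lower) and none after adjustment, and for all 8 the genotypes overlapped. Their summed level, as a mean of 8 log2 signals, ran between 9.62 and 10.13 in CAR KO samples and between 9.97 and 10.20 in WT samples, and all 8 were above background in either genotype. The part of these cells in the Hand1 value was not tested, and in such bulk RNA fewer cells of a type and less RNA per cell cannot be told apart.

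Hand2 had an estimate near 0. Its values were 10.43, 10.21, 10.31, 10.44 and 10.25 in CAR KO samples 1 to 5, and 10.30, 10.29, 10.37, 10.34 and 10.32 in WT samples 1 to 5. The WT samples lay within the spread of the CAR KO samples, which held both the highest and the lowest value. The log2 fold change was 0.00 (95% interval -8.36% to 9.68%, adjusted p = 1.0 from limma), and genotype accounted for 0.0726% of the variance. Whether Hand1 and Hand2 differ in their response was not tested.

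SRF binds the CArG box in genes of the contractile apparatus and the cytoskeleton. Srf had the lowest estimate of the 10, with 11.06, 11.21, 11.04, 11.10 and 10.87 in CAR KO samples 1 to 5, against 11.19, 11.21, 11.19, 11.12 and 11.04 in WT samples 1 to 5. CAR KO samples 1, 3, 4 and 5 were below 4 of the 5 WT samples, and CAR KO sample 2 was among the highest of all. The means were 11.06 ± 0.12 in CAR KO hearts and 11.15 ± 0.07 in WT hearts (SD, n = 5 each). The log2 fold change was -0.10 (95% interval -15.6% to 3.70%, unadjusted p = 0.183, adjusted p = 1.0 from limma), and it was -0.05 without CAR KO sample 5.

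Myocd gave nearly the same value in each CAR KO sample, at 12.10, 12.04, 12.02, 12.01 and 12.02 in samples 1 to 5. In WT samples 1 to 5 it gave 12.28, 11.92, 12.08, 12.05 and 11.78. The WT samples thus held the highest and the lowest value, with an SD of 0.04 in CAR KO samples and 0.19 in WT samples, a difference in spread that, like that of Mef2a, was not tested. The log2 fold change was 0.01 (95% interval -11.0% to 14.6%, adjusted p = 1.0 from limma), with a change of sign when CAR KO sample 1, WT sample 2 or WT sample 5 was left out.

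**Figure D2:**
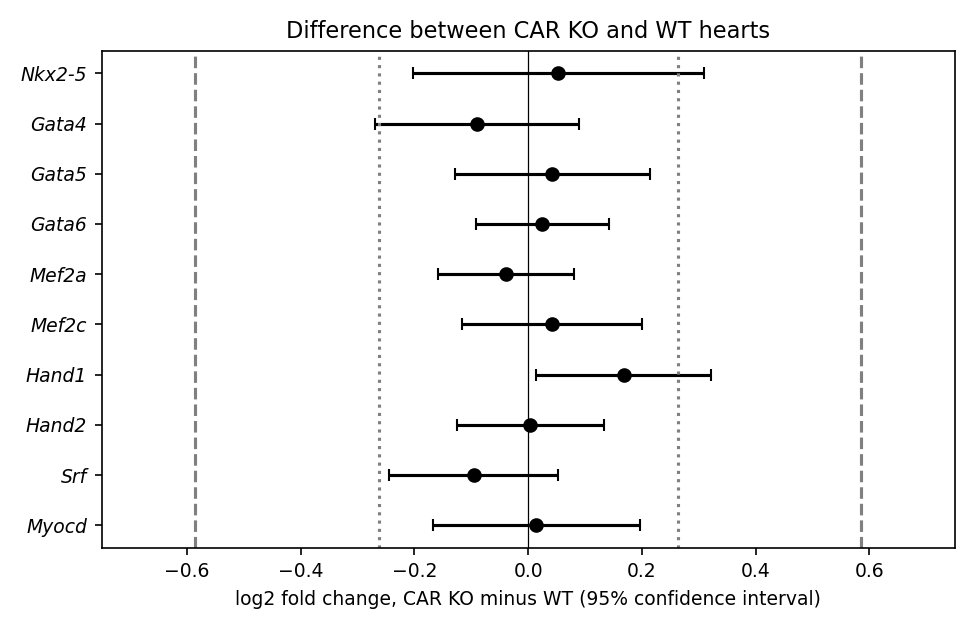
Log2 fold change of each factor (x axis, CAR KO minus WT; points are limma estimates, bars their 95% confidence intervals, n = 5 per genotype). Dashed lines mark a 1.5-fold and dotted lines a 1.2-fold change in either direction; all 10 intervals lie inside the dashed lines, 7 lie inside the dotted lines, and that of Hand1 alone does not reach 0.

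More of the variation among the factors lay between samples than between genotypes. Genotype took up a median of 4.75% of the variance per factor (range 0.0726% to 44.2%), near the 4.39% of all genes above background. The SD over the 10 samples had a median of 0.11 and ran between 0.06 (Gata6) and 0.20 (Nkx2-5), where all genes above background had a median of 0.13. A single sample of each genotype stood low for many factors at once. For 6 of the 10 factors CAR KO sample 5 had the lowest value among CAR KO hearts, and for 8 WT sample 5 had it among WT hearts. The mean of the 10 factors was 11.46 in CAR KO sample 5 and 11.43 in WT sample 5, against 11.55 to 11.65 in the other CAR KO samples and 11.56 to 11.66 in the other WT samples. Hand1 was an exception, with CAR KO sample 5 second highest of the CAR KO samples.

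**Figure D3:**
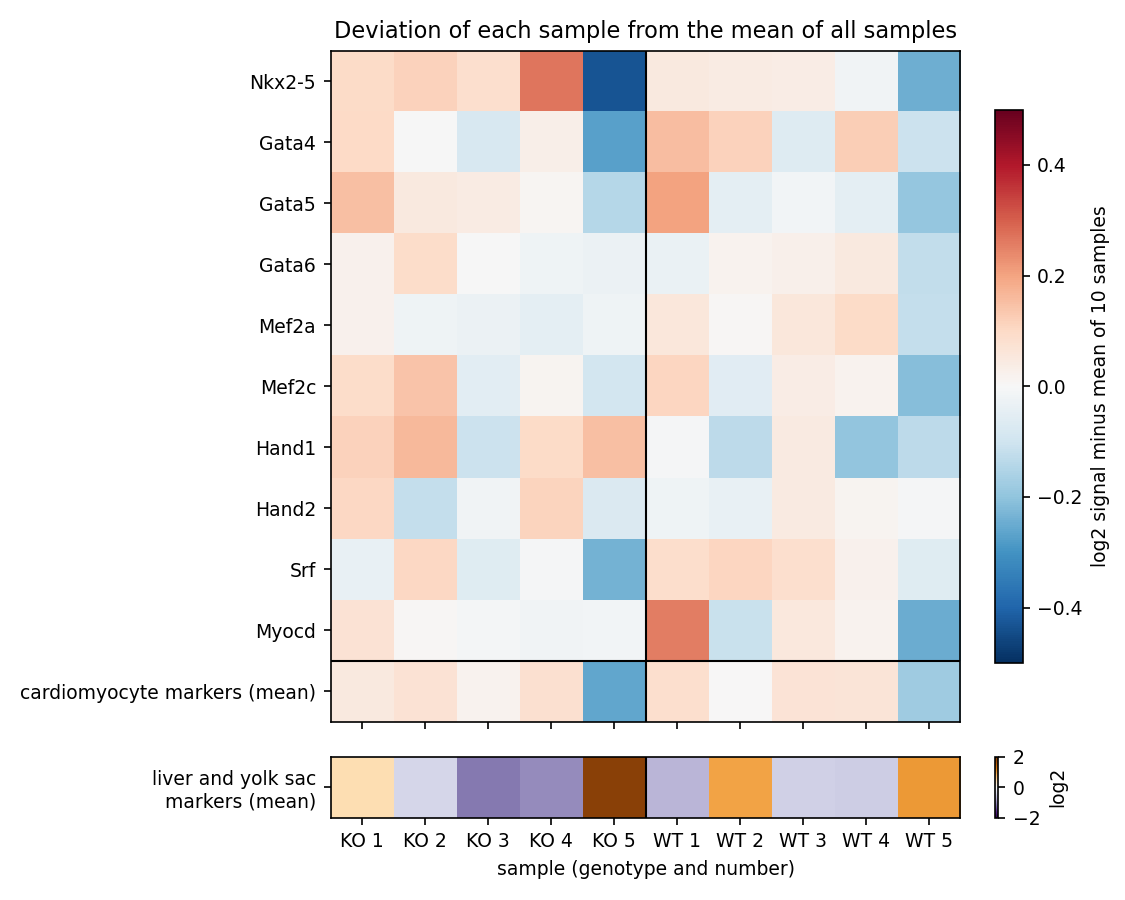
Deviation of each sample from the mean of the 10 samples (columns, CAR KO samples left of WT samples) for the 10 factors and for the mean of the cardiomyocyte markers (upper colour scale, log2), and for the averaged liver and yolk sac markers (lower scale, log2, wider range). Sample 5 of both genotypes is low for most factors and for the cardiomyocyte markers and high for the liver markers, while Hand1 is high in CAR KO sample 5.

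The factors were therefore set against the cardiomyocyte and the liver marker means over the 10 samples, 20 relations in all, with p-values from permutation tests adjusted over the 20. In 5 of them the adjusted p of Pearson's r was under 0.05, and in 0 was that of Spearman's rho as well. Nkx2-5 had the highest r with the cardiomyocyte mean (r = 0.92, permutation p = 0.00265, adjusted p = 0.0354, rho = 0.65, permutation p = 0.0485, adjusted p = 0.256). By rho, Mef2c (0.81) and Gata5 (0.73) stood above it. Leaving out CAR KO sample 5 and WT sample 5, which lie farthest from the median, brought the r of Nkx2-5 to 0.29, so that its relation rests on those samples. The same held for Gata4 (r = 0.78, adjusted permutation p = 0.0354, rho = 0.60, adjusted p = 0.256, r = 0.11 without them) and Srf (r = 0.79, adjusted permutation p = 0.0354, rho = 0.54, adjusted p = 0.284, r = 0.15 without them). Mef2c differed in that its relation stayed at r = 0.72 without those samples (r = 0.78, adjusted permutation p = 0.0354, rho = 0.81, permutation p = 0.00688, adjusted p = 0.138 with them). Against the liver mean, Nkx2-5 ran the other way (r = -0.80, adjusted permutation p = 0.0354, rho = -0.58, adjusted p = 0.256, r = -0.32 without those samples). Hand1 had r = -0.02 and Hand2 r = 0.34 with the cardiomyocyte mean (adjusted permutation p = 0.946 and 0.427, rho = 0.20 and 0.26). Without CAR KO sample 5 and WT sample 5 their r was 0.50 and 0.18, so that the low r of Hand1 also rests on those samples. Taken as deviations from the genotype means, r was 0.95 for Nkx2-5, 0.81 for Gata4, 0.81 for Mef2c and 0.86 for Srf. The marker means themselves ran against each other (r = -0.83, rho = -0.68, permutation p = 0.00196 and 0.0347, r = -0.51 without samples numbered 5).

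**Figure D4:**
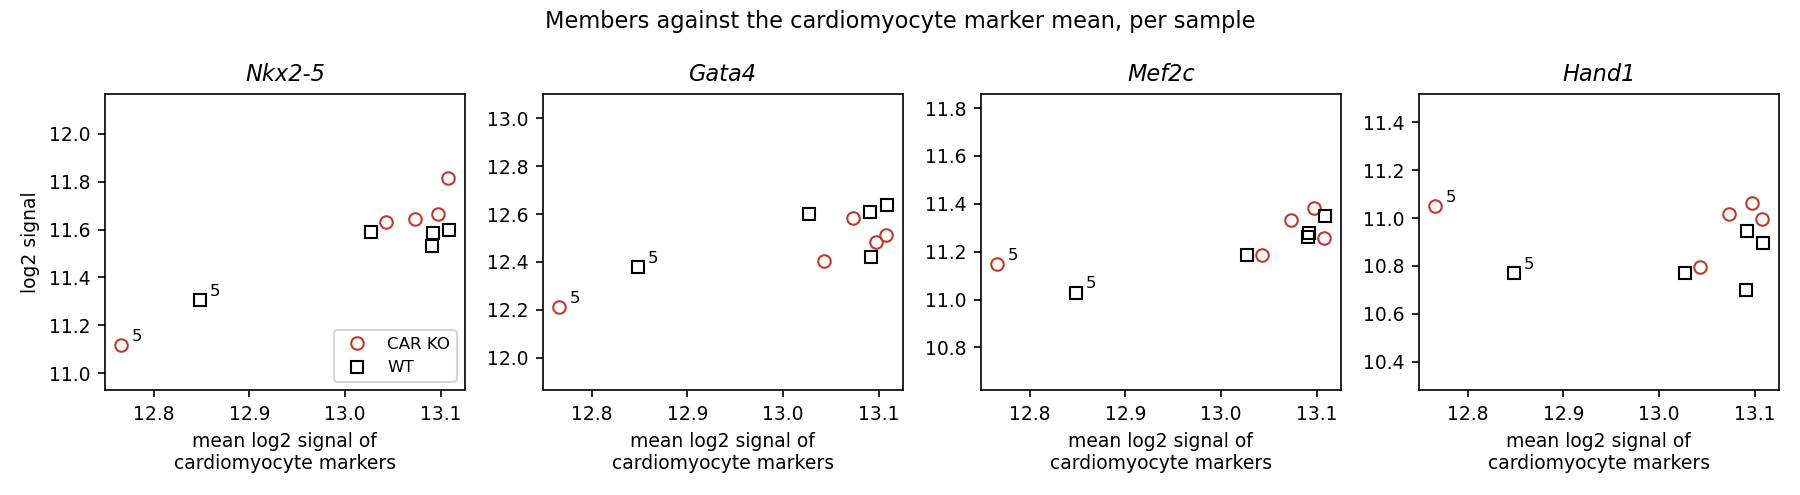
Log2 signal of Nkx2-5, Gata4, Mef2c and Hand1 (y axes, same span in each panel) against the mean log2 signal of 14 cardiomyocyte markers (x axis) in the 10 samples, CAR KO as red circles and WT as black squares, with sample 5 of each genotype marked. For Nkx2-5 and Gata4 the relation is set by the pair of samples at the left, and Mef2c also follows the marker mean among the other 8 samples. Hand1 does not follow it over the 10 samples (r = -0.02), but its r is 0.50 without the pair at the left.

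Among the factors, 39 of the 45 pairs had a positive r over the 10 samples (range -0.30 to 0.84). The pairs share these samples, and the share of positive r among pairs of all genes was not computed. After adjustment over the 45 pairs none passed on r or rho (11 had an unadjusted permutation p under 0.05). The closest were Gata5 with Myocd (r = 0.84, adjusted permutation p = 0.0691, rho = 0.76), Gata5 with Mef2c (r = 0.83, adjusted permutation p = 0.0691, rho = 0.86) and Mef2c with Myocd (r = 0.79, adjusted permutation p = 0.117, rho = 0.82). Without the 2 samples farthest from the median of the first gene of the pair, r was 0.49, 0.69 and 0.79. These were WT samples 1 and 5 for the Gata5 pairs, and CAR KO sample 2 and WT sample 5 for Mef2c with Myocd. Since different samples were left out, the pairs cannot be ranked by their dependence on single samples. With genotype means taken out, the 3 closest pairs and that of Nkx2-5 with Srf (r = 0.86) had an adjusted permutation p of 0.0431. These permutations ran over all 10 samples and not within genotypes, so that this p may be too low. For Nkx2-5 with Srf the r over the samples themselves was 0.68, and -0.30 without CAR KO sample 5 and WT sample 5. Without these samples Nkx2-5 also had a negative r with Mef2a (-0.81), Gata6 (-0.27), Gata4 (-0.24) and Myocd (-0.17). Its r stayed positive with Hand1 (0.62), Hand2 (0.37), Gata5 (0.11) and Mef2c (0.08). Over all 10 samples the 6 pairs with a negative r all held Hand1 or Hand2, the lowest being Hand1 with Gata4 (-0.30). Hand1 and Hand2 had an r of -0.0023 with each other.

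The genes whose pattern over the 10 samples was most like that of a factor were sought for the 3 factors with the largest SD, among 14664 other genes above background. For Nkx2-5 these were Ppp1r1a (r = 0.99), an inhibitor of protein phosphatase 1, and Rasd1 (r = 0.98), a small GTPase, and 165 genes had r above 0.9. Ppp1r1a was lowest in CAR KO sample 5 (10.06) and WT sample 5 (10.36), as Nkx2-5 was. For Gata4 they were Rimkla (r = 0.96) and Adam19 (r = 0.95), a membrane protease, with 44 genes above 0.9. For Hand1 they were Stard8 (r = 0.94) and F2rl3 (r = 0.85), the gene of a thrombin receptor, and only Stard8 was above 0.9. The points share their libraries, and no test was made of these values.

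No relative, partner or target of the factors was called. Of 71 genes on these lists 70 had a row of their own. At an unadjusted p under 0.05 none was higher and 1 was lower (0.978% and 1.43% of all clusters). The interval lay within 1.5-fold for 68 of the 70 (97.3% of all clusters) and within 1.2-fold for 31 of the 70 (60.6% of all clusters). The 9 relatives with a row had a median log2 fold change of -0.0005, with 4 above and 5 below 0. Nkx2-6, expressed in the pharynx and outflow region, averaged 7.88 ± 0.14 in CAR KO hearts and 7.75 ± 0.15 in WT hearts (SD, n = 5 each, log2 fold change 0.13, unadjusted p = 0.164 from limma). Mrtfb, a relative of myocardin, had a log2 fold change of 0.10 and Mef2d one of 0.04.

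The 19 partners and co-regulators had a median of -0.04, with 7 above and 12 below 0, and the median was 0.01 without CAR KO sample 5. Tbx5 and Tbx20, T-box factors that bind NKX2-5 and GATA4, averaged 11.81 and 12.91 in CAR KO hearts against 11.82 and 12.89 in WT hearts (log2 fold change -0.00 and 0.02). Zfpm2, which encodes the GATA4 cofactor FOG2, had a log2 fold change of 0.03. Smyd1, a muscle histone methyltransferase, had one of -0.05. Elk4, an ETS factor that joins SRF on DNA, averaged 9.40 ± 0.06 in CAR KO hearts and 9.51 ± 0.04 in WT hearts (SD, n = 5 each, log2 fold change -0.11, unadjusted p = 0.0666 from limma). The exact permutation test gave p = 0.0238 for Elk4, and genotype accounted for 53.5% of its variance. Its samples overlapped, and it was named for the smallest p of its list. Isl1, the factor of the second heart field, averaged 8.92 ± 0.18 in CAR KO hearts and 8.66 ± 0.31 in WT hearts (SD, n = 5 each, log2 fold change 0.26, unadjusted p = 0.0904 from limma), and its samples overlapped.

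The 29 cardiac targets had a median log2 fold change of -0.06, with 22 of the 29 below 0, while the median of all genes above background was -0.0002. Leaving out single samples moved this median between -0.10 and 0.0032, the last without CAR KO sample 5. Myl2, the ventricular myosin light chain, was the gene with an unadjusted p under 0.05. Its values were 13.64, 13.49, 13.47, 13.60 and 13.35 in CAR KO samples 1 to 5, and 13.62, 13.62, 13.72, 13.70 and 13.64 in WT samples 1 to 5 (log2 fold change -0.15, unadjusted p = 0.0354, adjusted p = 1.0 from limma). CAR KO sample 1 lay inside the WT range and the other 4 CAR KO samples below it. Actc1, whose promoter is printed above, had 14.24 ± 0.02 in CAR KO hearts and 14.27 ± 0.02 in WT hearts (SD, n = 5 each, log2 fold change -0.03). Tnnt2 had a log2 fold change of -0.04 and Hspb7, a small heat shock protein of heart muscle, one of -0.08. Nppa and Nppb, the natriuretic peptides of the embryonic chambers, had log2 fold changes of -0.09 and -0.26, which were -0.02 and -0.05 without CAR KO sample 5. Nppb, whose GATA words are printed above, spread between 11.23 and 11.86 in CAR KO samples 1 to 4 and between 11.32 and 11.82 in WT samples, and CAR KO sample 5 lay below all of these.

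The 13 smooth muscle targets of SRF and myocardin had a median of -0.07, with 3 above and 10 below 0 and none at an unadjusted p under 0.05. Acta2, smooth muscle actin, which the early heart muscle also makes, averaged 13.87 ± 0.04 in CAR KO hearts and 13.88 ± 0.06 in WT hearts (SD, n = 5 each, log2 fold change -0.01). Vcl, vinculin of the cell contacts, had a log2 fold change of -0.10 and Myl9, a regulatory myosin light chain, one of -0.07. Lmod1, a protein that starts actin filaments in smooth muscle, had the highest estimate of the list, at 8.35 ± 0.18 in CAR KO hearts and 8.15 ± 0.16 in WT hearts (SD, n = 5 each, log2 fold change 0.21, unadjusted p = 0.0600 from limma).

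**Figure D5:**
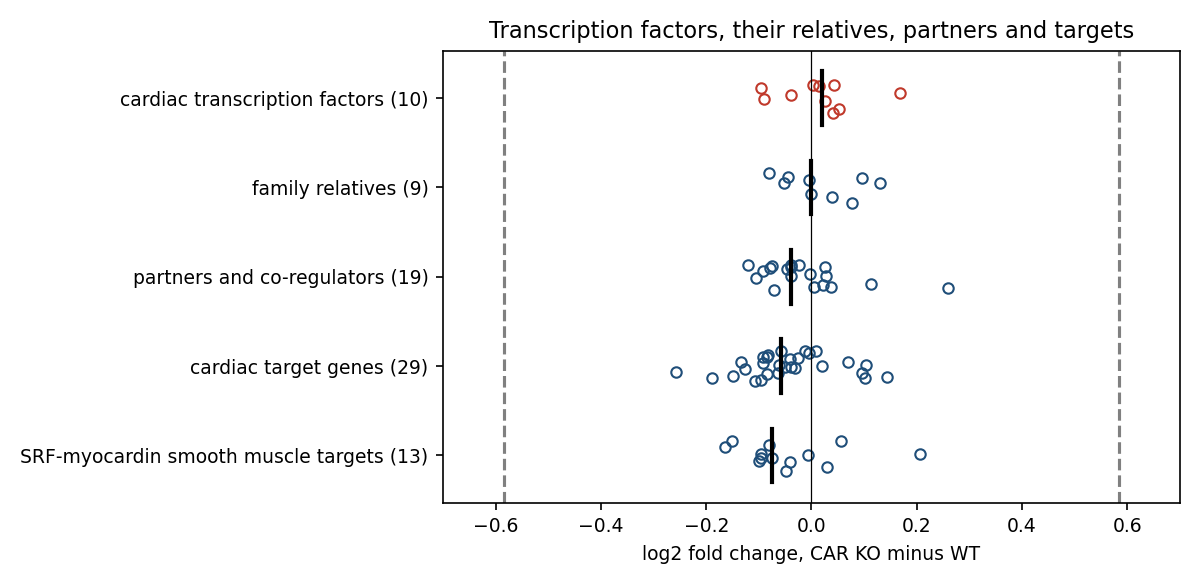
Log2 fold change (x axis, CAR KO minus WT) of each of the 10 factors (red) and of the genes on the 4 lists of relatives, partners and targets (blue, number of genes with a row in parentheses); short black bars are list medians and dashed lines a 1.5-fold change. All points lie inside the dashed lines, and the list medians run between -0.07 and 0.02.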

How the data were processed

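Hearts of CAR KO and WT embryos (5 samples each, grouped by the genotype in their labels) were compared. The authors deposited log2 signals for 35556 rows; the submitters' processing notes name MAS5, and the sources used here do not give the normalization step. Leaving out 6612 control rows left 28944 transcript clusters, of which 21797 name 1 gene, 1613 several and 5534 are unnamed here. A gene was read from its row with the highest mean; each of the 10 factors had 1 row. The means of 1210 receptor clusters set the background at their 95th percentile, which 14665 genes exceeded. limma 3.58.1 (lmFit and eBayes, R 4.3.3) gave moderated tests with Benjamini-Hochberg adjustment over all clusters; intervals were not adjusted. The procedure was tested on simulated data.

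Single values also had exact permutation tests (5 against 5, two-sided), and correlations 100000 permutations. The factors and the gene lists were chosen with earlier results of these data known. Named by rule were all factors, in each list the 2 genes with the smallest p and the 2 with the highest mean, plus Tbx5, Tbx20, Zfpm2, Nppa and Nppb, the 2 genes most alike to each of the 3 most variable factors, Tnnt2, Actc1, Alb and Afp, and Cxadr. Symbols came from the platform annotation and positions and promoters from RefSeq (GRCm38.p6); Mef2b had no row of its own, and some other listed genes are not reported here. Figures were drawn with matplotlib 3.10.9. Alternatives were quantile normalization, median centring, dropping clusters under the 40th percentile, array weights, a robust trend prior, the methods' t-test, testing only clusters with 1 gene, the sample number as a replicate block and leaving out samples. Leaving out both samples numbered 5, leaving out the 3 liver-rich samples (CAR KO 5, WT 2 and WT 5) and a cardiomyocyte covariate were chosen after seeing the data. The number of arrays limits the precision.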

Additional observations from a re-analysis of the deposited data

Results flagged for a closer look

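In 5 of the 26 sets of values per genotype that were checked, 1 sample was set off from the remaining 4. By chance about 1 set in 20 would be, or 1.3 here. The gap to the nearest sample, as a share of the whole range, was 0.736 for Nkx2-5 in CAR KO sample 5 (11.12, next 11.63) and 0.769 for Nkx2-5 in WT sample 5 (11.31, next 11.53), the lowest in each genotype. For the mean of the cardiomyocyte markers it was 0.811 in CAR KO sample 5 (12.77, next 13.04), which was also the lowest. Hand1 in CAR KO sample 3 was lowest in CAR KO hearts with a share of 0.744 (10.79, next 10.995). Myocd in CAR KO sample 1 was the highest of its genotype with a share of 0.734, although the CAR KO samples spanned only 12.01 to 12.10.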

How the results depend on the processing

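None of the 10 factors was called in any of 210 combinations of factor and alternative, and 16 of these reversed the sign. The interval stayed within 1.5-fold for all 10 factors throughout and within 1.2-fold for 6 to 9. Over the array, 1 cluster was called in every fit but that with array weights (2). Clusters with an unadjusted p under 0.05 numbered 696, and 1811 with array weights, 1304 with the replicate block, 1214 without the 3 samples richest in liver transcripts, 1115 with the cardiomyocyte covariate and 411 to 1029 without single samples. Correlated pairs of factors after adjustment numbered 2 with quantile normalization and 4 as deviations from genotype means, the last with permutations not kept within genotypes.

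Several small estimates changed sign. Without single samples the log2 fold change ranged between -0.0071 and 0.167 for Nkx2-5, -0.00085 and 0.098 for Gata5, -0.0021 and 0.040 for Gata6, -0.0063 and 0.073 for Mef2c, -0.024 and 0.034 for Hand2, -0.046 and 0.080 for Myocd, -0.049 and 0.081 for Tbx5, -0.018 and 0.038 for Tbx20, -0.0077 and 0.052 for Zfpm2, -0.116 and 0.018 for Smyd1, -0.066 and 0.00044 for Tnnt2 and -0.030 and 0.010 for Acta2. Quantile normalization gave 0.018 for Acta2 and 0.0038 for Tbx5, and median centring -0.0027 for Hand2. Without both samples numbered 5 Myocd was -0.040, Mef2d -0.0041 and Tbx20 -0.012. Without the 3 samples richest in liver transcripts Mef2c was -0.0059, Myocd -0.095, Mef2d -0.026 and Tbx20 -0.033. The cause of these changes was not tested.

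The sample numbers were not taken to pair the genotypes. Deviations of CAR KO and WT samples with the same number correlated between 0.073 and 0.561 over all clusters (0.108 to 0.586 over genes above background), and for 4 of 5 CAR KO samples the best match among WT samples had the same number. The labels do not say whether samples with the same number share a litter or a batch, and this was not tested. With the replicate block 0 factors were called and 0 had an unadjusted p under 0.05. Isl1 and Lmod1, both higher in CAR KO hearts, had unadjusted p-values of 0.00686 and 0.00637 from limma with it, and the adjusted p was 0.969 for both. With 5 samples per genotype the smallest exact permutation p is 0.00794. The intervals of Nkx2-5, Gata4 and Hand1 reached past a 1.2-fold change, so differences of that size were not excluded for them. For the other factors the intervals lay inside a 1.2-fold change and took in 0, so smaller differences were not resolved.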
